A study of Homo sapiens with 12 samples.

Results

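The transcripts described here are 10 lineage markers, chosen by gene symbol from the 60669 genes counted. They are the Müllerian and ovarian transcription factors PAX8, WT1, SOX17 and MECOM, the squamous factors TP63 and SOX2, the epithelial factors SOX9 and KLF5, and the ovarian cancer surface antigens MUC16 and MSLN. The RNA came from 6 established cell lines, labelled as ovarian cancer, in 3 isogenic families of 2 lines, each with a chemosensitive and a chemoresistant member. These were HeyA8 and HeyA8_MDR (carboplatin-resistant), SKOV3 and SKOV3_TR (taxol-resistant), and OV2008 and OV2008_C13 (cisplatin-resistant, derived from OV2008). Each line received quinacrine (QC), an antimalarial drug, at 8 µM for 6 h or vehicle alone, and 1 library was made per line and treatment, 12 in all. No line had replicate libraries, so the lines themselves served as replicates, and the p-values below measure the spread between these lines only. The lines of a family share an origin, and the HeyA8 lines were grown in another medium than the other 4, so medium and the HeyA8 family cannot be told apart. The ovarian origin of OV2008 has been questioned, and the identity of the lines was not tested here, so that the family is called by its name below.

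PAX8 and SOX17 are expressed in the epithelium of the fallopian tube and its tumors, WT1 marks serous ovarian carcinoma and mesothelium, and MECOM is a zinc finger factor encoded in the 3q26 region that is often gained in ovarian carcinoma. TP63 is the master regulator of basal and squamous epithelium, and SOX2 is often amplified with it on 3q in squamous carcinomas. KLF5 acts in proliferating epithelial cells of many tissues, and SOX9 marks progenitor cells of several epithelia. MUC16 encodes the CA125 antigen, and MSLN encodes mesothelin, a surface protein that binds it.

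Library totals lay between 17782556 and 30585059 counts, with a median of 22289428. Levels are given as CPM, the count scaled to the size of the library with TMM factors, and levels of different genes are compared only per kilobase of merged exons. In every library between 64.8% and 69.9% of counts from 1 to 10 were even numbers, so that counting error treated as independent reads understates the true error at low counts. All 10 genes passed the filter on low counts, but 5 of them had at least 10 counts in every library. Exons of PAX8 share 1651 bases with PAX8-AS1 on the opposite strand, 22.4% of its merged exon length, and the strand setting of the counting is not stated, so reads there cannot be told apart.

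The 250 bases upstream of the RefSeq starts (GRCh38.p14) of PAX8, TP63 and SOX2 are shown because these genes were high in opposite families. The windows lie at chr2:113278922-113279171 on the minus strand for PAX8, chr3:189631139-189631388 on the plus strand for TP63 and chr3:181711675-181711924 on the plus strand for SOX2. The TP63 window lies within the annotated extent of the gene, which starts at position 189596746 of chromosome 3. Capitals mark the CCAAT box in either orientation (CCAAT or ATTGG), read 5′ to 3′ on the strand of the gene.
PAX8: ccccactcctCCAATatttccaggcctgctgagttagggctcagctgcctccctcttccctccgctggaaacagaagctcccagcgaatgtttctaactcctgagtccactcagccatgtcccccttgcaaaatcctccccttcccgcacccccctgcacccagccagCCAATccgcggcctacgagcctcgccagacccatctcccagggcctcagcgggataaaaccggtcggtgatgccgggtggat
TP63: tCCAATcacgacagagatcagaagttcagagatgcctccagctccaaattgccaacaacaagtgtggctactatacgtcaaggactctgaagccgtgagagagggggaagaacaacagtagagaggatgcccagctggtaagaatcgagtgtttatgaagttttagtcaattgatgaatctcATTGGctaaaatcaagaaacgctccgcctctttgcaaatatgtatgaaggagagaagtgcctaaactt
SOX2: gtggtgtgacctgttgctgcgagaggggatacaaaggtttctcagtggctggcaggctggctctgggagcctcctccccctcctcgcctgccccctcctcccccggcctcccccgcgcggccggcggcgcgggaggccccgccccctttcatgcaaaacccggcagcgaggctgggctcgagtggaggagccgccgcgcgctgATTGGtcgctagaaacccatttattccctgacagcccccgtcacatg
PAX8 and TP63 each held 2 of these boxes and SOX2 held 1, beside 32.0% of 34943 RefSeq windows of the same length that held at least 1. The windows differed in base composition. G and C made up 61.6% of the PAX8 window with 11 CpG sites, 44% of the TP63 window with 6, and 68.8% of the SOX2 window with 20, where the medians over all windows were 58.0% and 11.

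The 3 families carried different sets of these factors before any drug was added. In the OV2008 family TP63, SOX2 and KLF5 were higher than in the other families and PAX8, SOX17 and MECOM were lower, in both of its lines. Of the 10 genes, 6 passed an adjusted p of 0.05 in this comparison (edgeR quasi-likelihood test with Benjamini-Hochberg adjustment over 18297 genes), beside 10% of all genes tested. In the same comparison 5.57% of all genes were called higher and 4.43% lower. TP63 and SOX2 passed the filter on low counts only through the OV2008 family, and SOX17 only through the other lines, so these 3 had to differ and their p-values are given without weight. With 10 or more counts asked of every library, 5 of the 10 genes were tested and 3 were called, PAX8, MECOM and KLF5. Over the whole series 1574 of 12070 genes were called with that filter. The calls need both lines of the family. Without OV2008 or without OV2008_C13 a lone library is left there, assumed to vary like the other families. Such a fit cannot weigh a call for any gene, and this holds for the gene lists below too. Each of the 6 genes kept its former direction in these fits.

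**Figure D1:**
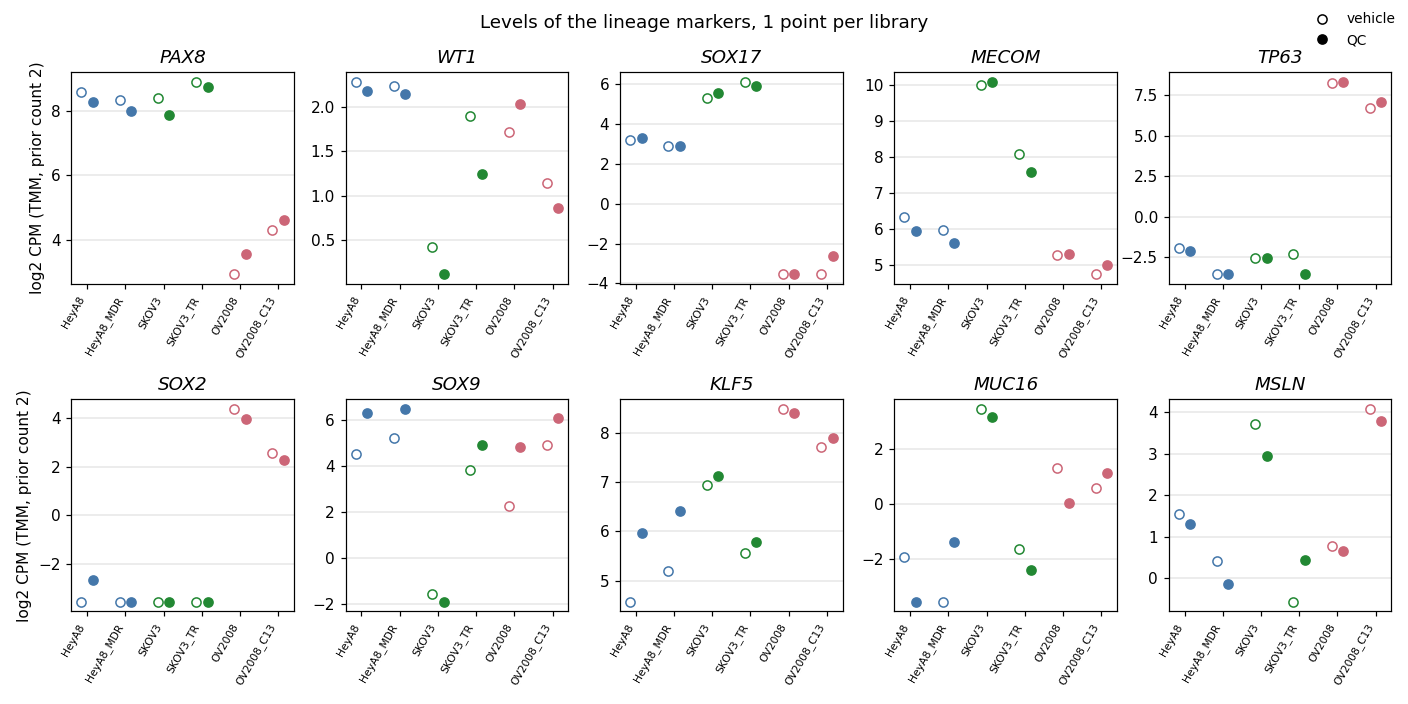
Levels of the 10 lineage markers in the 12 libraries, as log2 CPM (TMM, prior count 2), with the 6 lines on the horizontal axis. Each point is a library, open for vehicle and filled for QC, blue for the HeyA8, green for the SKOV3 and red for the OV2008 family. TP63 and SOX2 stand high in the 4 OV2008 family libraries, where SOX17 had at most 2 counts.

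Among the Müllerian factors, PAX8 had 379.8 CPM in HeyA8, 325 in HeyA8_MDR, 339 in SKOV3 and 479.6 in SKOV3_TR without QC, but 7.56 in OV2008 and 19.6 in OV2008_C13. With QC the first 4 lines had 307, 255, 234 and 429 CPM, and OV2008 and OV2008_C13 had 11.8 and 24.8. The OV2008 family libraries therefore did not overlap with any of the others, and PAX8 was 28-fold lower in its vehicle libraries than in the mean of the other 4 (log2 fold change -4.94, SE 0.51, adjusted p = 0.0102 in the quasi-likelihood test). PAX8-AS1 ran the other way. It had 92.8 and 150.3 CPM in OV2008 and OV2008_C13 without QC and between 49.5 and 54.0 CPM in the other 4 lines, and its difference did not pass the adjusted threshold (log2 fold change 1.20, adjusted p = 0.0636). The share of PAX8 counts in the OV2008 family that came from the overlapping exons was not tested.

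SOX17 had 0 counts in both OV2008 family vehicle libraries and in OV2008 with QC, and 2 counts in OV2008_C13 with QC. In the other lines without QC it had 9.04 CPM in HeyA8, 7.32 in HeyA8_MDR, 40.2 in SKOV3 and 71.0 in SKOV3_TR. With QC the same lines had 9.80, 7.46, 46.8 and 60.3 CPM. It was at least 509.5-fold lower in the OV2008 family without QC, taking a floor of 3 counts over its 2 libraries (adjusted p = 0.0109, with the filter passed through the other lines alone). SKOV3 and SKOV3_TR also stood 6.79-fold above the HeyA8 pair (mean 55.6 against 8.18 CPM), with no overlap but an adjusted p of 0.0595 in the direct contrast of those families.

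MECOM was highest in the SKOV3 family, as SOX17 was, with 1026 CPM in SKOV3 and 271 in SKOV3_TR without QC and 1087 and 192 with QC. HeyA8 and HeyA8_MDR had 79.6 and 62.1 CPM without QC and 61.0 and 48.3 with QC, and the 4 OV2008 family libraries had between 26.4 and 39.5. Per kilobase its mean vehicle level was 70.0 CPM in the SKOV3 family, against 7.65 in the HeyA8 and 3.49 in the OV2008 family. It stood above PAX8 in SKOV3 (110.8 against 46.0 CPM per kilobase) and below it in SKOV3_TR (29.3 against 65.1). The lower level in the OV2008 family passed the test (log2 fold change -2.67, SE 0.46, adjusted p = 0.0276), but with the QC libraries in place of the vehicle libraries the adjusted p was 0.0606, and without HeyA8_MDR it was 0.0602.

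WT1 was low everywhere, and its differences between families did not pass the test. WT1 had 4.79 CPM in HeyA8, 4.62 in HeyA8_MDR, 1.255 in SKOV3, 3.63 in SKOV3_TR, 3.19 in OV2008 and 2.13 in OV2008_C13 without QC, and between 0.999 and 4.42 CPM in the QC libraries. The 4 HeyA8 family libraries (at least 4.32 CPM) lay above the other 8 (at most 4.01), with an adjusted p of 0.462 in the HeyA8 contrast. The counts behind these values ran between 22 and 123 per library. Per kilobase the family means were 0.578, 0.301 and 0.327 CPM in the HeyA8, SKOV3 and OV2008 families, far below PAX8 in the HeyA8 and SKOV3 families.

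TP63 was nearly confined to the OV2008 family among these libraries. OV2008 had 315 CPM without and 329 with QC, and OV2008_C13 had 108 and 138. The other 8 libraries held between 0 and 4 counts each. In the vehicle libraries 8873 counts in the OV2008 family stood against 10 in the other 4 lines, a 2233-fold difference in mean CPM (log2 fold change 10.88, SE 0.66, adjusted p = 0.00541, with the filter passed through the OV2008 family alone). Per kilobase TP63 reached 28.3 CPM in the OV2008 family, where PAX8 had 1.84. The counts are per gene and do not separate the long and short TP63 isoforms.

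SOX2 followed the same families. It had 20.7 CPM in OV2008 and 5.89 in OV2008_C13 without QC, and 15.4 and 4.75 with QC. It had 0 counts in 7 of the other 8 libraries and 2 counts in HeyA8 with QC. Its level was at least 442.6-fold higher in the OV2008 family than the floor of 3 counts over the other 4 vehicle libraries (adjusted p = 0.0200, with the filter passed through the OV2008 family alone). Its host transcript SOX2-OT had at most 19 counts in any library.

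KLF5 was present in all lines and highest in the OV2008 family. Without QC it had 359 CPM in OV2008 and 210.2 in OV2008_C13, 124 in SKOV3 and 46.9 in SKOV3_TR, and 23.7 in HeyA8 and 36.7 in HeyA8_MDR. The OV2008 family was 4.93-fold above the mean of the other lines (log2 fold change 2.43, SE 0.44, adjusted p = 0.0305). The SKOV3 family was 2.82-fold above the HeyA8 family with no overlap, and that difference did not pass the test (adjusted p = 0.181). With QC these families overlapped, with 138 CPM in SKOV3, 55.0 in SKOV3_TR, 62.2 in HeyA8 and 85.2 in HeyA8_MDR, while OV2008 and OV2008_C13 had 339.7 and 239 CPM. At 77.3 CPM per kilobase KLF5 was the most abundant of the 10 transcripts in the OV2008 family.

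SOX9 split lines rather than families. Without QC it had 22.9 CPM in HeyA8, 36.9 in HeyA8_MDR, 0.251 in SKOV3, 14 in SKOV3_TR, 4.71 in OV2008 and 30.3 in OV2008_C13. The SKOV3 vehicle library held 6 counts. The spread inside the SKOV3 and OV2008 families was as wide as that between families, and the OV2008 comparison gave an adjusted p of 0.957.

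The surface antigens were low, and both differed widely inside the SKOV3 pair. MUC16 reached 10.9 CPM in SKOV3, 2.35 in OV2008 and 1.40 in OV2008_C13 without QC, while HeyA8, HeyA8_MDR and SKOV3_TR had 4, 0 and 8 counts. MSLN had 13.05 CPM in SKOV3 and 16.9 in OV2008_C13, against 2.84 in HeyA8, 1.25 in HeyA8_MDR, 0.591 in SKOV3_TR and 1.62 in OV2008. Neither passed the test between the OV2008 and the other families (adjusted p = 0.213 and 0.524).

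The HeyA8 and SKOV3 families were also each set against the mean of the others, in which the OV2008 family counts. PAX8, SOX17 and TP63 passed the test for HeyA8 (3 of 10 genes, beside 7.65% of all genes) with fitted log2 fold changes of 2.36, 4.00 and -5.77. The fit averages the other families on the log scale, so SOX17 comes out higher because the OV2008 family is at 0 counts, whereas its mean CPM was lower in the HeyA8 family than over the other 4 lines (8.18 against 27.8). The SOX17 value therefore gives no direction for the HeyA8 family. The same genes and MECOM passed for SKOV3 (4 of 10, beside 12.3%) with log2 fold changes of 2.58 for PAX8, 8.08 for SOX17, 3.56 for MECOM and -5.11 for TP63. In the direct contrast of the HeyA8 with the SKOV3 family, which was chosen after the values had been seen, MECOM was the member called (log2 fold change -2.96, SE 0.50, adjusted p = 0.0312), 1 of 10 beside 7.21% of all genes. TP63 and SOX2 were near or at 0 in both of these families, and PAX8 had vehicle means of 352 CPM in HeyA8 and 409 in SKOV3. TP63 and PAX8 were not called in the direct contrast (adjusted p = 0.823 and 0.855 in the quasi-likelihood test). Their calls above therefore restate the OV2008 difference. That of TP63 carries no weight, since it passed the filter through the OV2008 family alone. These 3 comparisons share libraries and are not independent of the OV2008 contrast. Of the 3 HeyA8 calls, 0 were kept without HeyA8, without HeyA8_MDR, without OV2008 or without OV2008_C13. The 4 SKOV3 calls dropped to 0 without OV2008_C13, those of PAX8, MECOM and TP63 were also lost without OV2008, and that of TP63 without HeyA8 (adjusted p = 0.995). The MECOM call between the HeyA8 and SKOV3 families was lost without HeyA8, HeyA8_MDR, OV2008 or OV2008_C13 (adjusted p between 0.0699 and 0.140).

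The other genes of each lineage were read from lists of known markers. Of 21 squamous transcription factors 19 were tested, and 13 of them were higher in the OV2008 family and 0 lower, beside 5.57% of all genes called higher. Genes that passed the filter through the OV2008 family alone had to differ there. With 10 or more counts asked of every library 4 of 6 tested factors were higher and 0 lower. Of all genes 1574 of 12070 were then called in either direction. The median log2 fold change of the 19 was 4.39, where the median over all genes was -0.04. SOX15, an epidermal SOX factor, had between 127 and 198 CPM in the 4 OV2008 family libraries and at most 2.16 in the others (log2 fold change 7.93, adjusted p = 0.00541). GRHL2, which maintains epithelial junctions, had between 88.3 and 103 CPM there, and in the other 8 libraries it had 2 counts in SKOV3_TR without QC and 0 elsewhere. TFAP2C, a factor of surface ectoderm and placenta, was shared with HeyA8, whose libraries had between 39.0 and 59.3 CPM beside 50.0 to 111 in the OV2008 family. PITX1 was also higher in the OV2008 family (log2 fold change 2.40, adjusted p = 0.0137).

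Of 42 squamous structural genes 35 were tested, and 28 were higher in the OV2008 family and 0 lower, beside 5.57% of all genes called higher. The median log2 fold change of the 35 was 6.42. Here too, genes that passed the filter through the OV2008 family alone had to differ. With 10 or more counts in each library 10 of 13 were higher, beside 1574 of 12070 genes called in either direction. KRT5, a basal keratin, had 11210 CPM in OV2008 and 3060 in OV2008_C13 without QC, 49.4 in SKOV3_TR and 0 counts in HeyA8, HeyA8_MDR and SKOV3. KRT6A had 2485 CPM in OV2008 and 120.0 in OV2008_C13, and at most 1.77 elsewhere. TRIM29, SERPINB5 and PKP1, which encode a basal cell adaptor, maspin and a desmosomal plakophilin, had the smallest p of this list. They held at most 20 counts in any vehicle library of the other families and would not have passed the filter without the OV2008 family. These genes had to differ, so their rank by p is given without weight. TRIM29 had 591 and 296 CPM without QC, against at most 0.837 in the other 4 lines. SERPINB5 had 125 and 158 CPM against at most 0.443, and PKP1 had 189.6 and 85.0 against at most 0.620. The summed level of the 42 genes was 25950 CPM in OV2008 and 11720 in OV2008_C13 without QC, and between 1857 and 3104 in the other lines. Fits without OV2008 or without OV2008_C13 leave a lone library in the family and cannot weigh either squamous list. In the other leave-out fits between 9 and 15 squamous factors and between 21 and 30 structural genes were called higher.

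**Figure D2:**
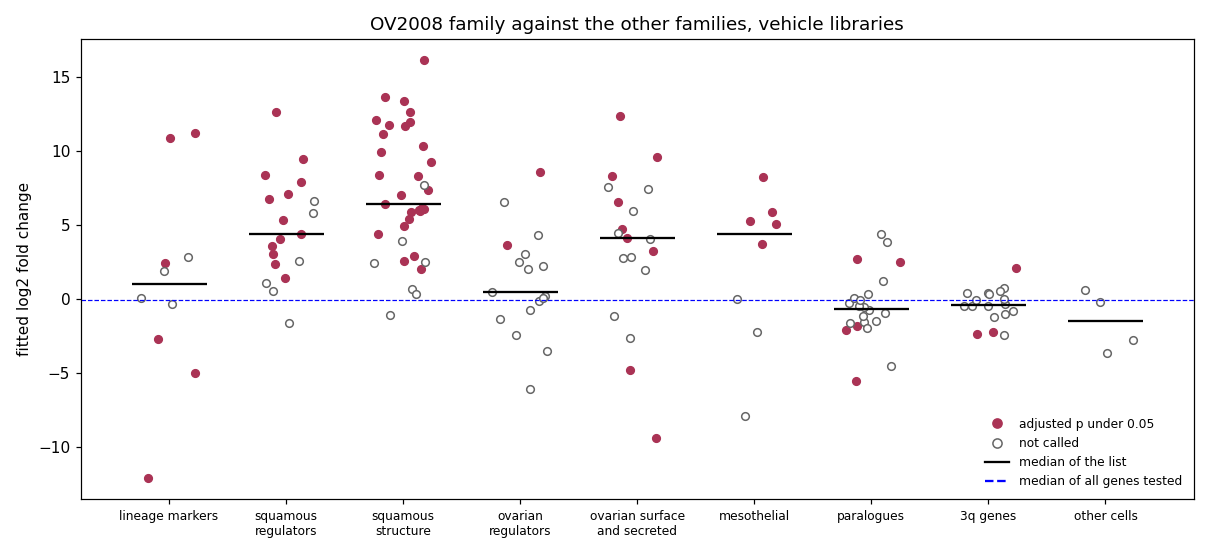
Fitted log2 fold changes of the OV2008 family against the other families (vertical axis) for the tested genes of each list, in the 6 vehicle libraries. Filled points passed an adjusted p of 0.05, black bars are list medians and the dashed line is the median of all genes tested, and fitted values against libraries at 0 depend on the prior count. The squamous lists lie mostly above the line, with 13 of 19 and 28 of 35 genes called higher, beside 5.57% of all genes.

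The ovarian lists did not mirror PAX8 and SOX17. Of 17 tested Müllerian and ovarian transcription factors, 2 were higher in the OV2008 family and 0 lower, beside 5.57% and 4.43% of all genes. The count of higher calls was 0 without OV2008 or without OV2008_C13, 3 without HeyA8 or without HeyA8_MDR, 7 without SKOV3 and 5 without SKOV3_TR, and it lay between 1 and 8 in the other settings. The 2 were HOXA11, a Müllerian patterning gene, and FOXL2, a granulosa cell factor. HOXA11 had between 6.82 and 18.9 CPM in the 4 OV2008 family libraries and at most 1.06 in the others. It would not have passed the filter without the OV2008 family, so it had to differ. FOXL2 had between 5.95 and 12.4 CPM there, beside 4.83 to 11.3 in the HeyA8 family and at most 0.0837 in the SKOV3 family. The fit averages the other families on the log scale, so the FOXL2 call gives no direction against the HeyA8 family. The most abundant factors of the list, HOXB7, NR2F2, BHLHE41 and TCF7L2, were not called.

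Among 19 tested ovarian surface and secreted genes, 7 were higher in the OV2008 family and 2 lower, beside 5.57% and 4.43% of all genes. Those that passed the filter through the OV2008 family alone had to differ. The higher calls numbered 0 without OV2008 or without OV2008_C13, 11 without SKOV3 and 12 without SKOV3_TR, and between 3 and 13 in the other settings. EPCAM, an adhesion molecule of simple epithelia, had between 183 and 246 CPM there, 52.4 in SKOV3, 3.07 in SKOV3_TR, 2.92 in HeyA8 and 1 count in HeyA8_MDR without QC. ELF3 and SPINT2, an epithelial ETS factor and a protease inhibitor, were present in the SKOV3 and OV2008 families and nearly lacking in the HeyA8 family. ELF3 had at most 0.104 CPM in the HeyA8 libraries and at least 50.5 in the other 8, and SPINT2 had at most 2.86 against at least 163. In the HeyA8 contrast 7 genes of this list were lower and 0 higher, beside 7.65% of all genes called in either direction. In the SKOV3 contrast 6 were higher and 0 lower, beside 12.3% called in either direction.

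Mesothelial markers were tested because WT1 and MSLN also mark mesothelium. Of 8 tested genes 5 were higher in the OV2008 family and 0 lower, beside 5.57% and 4.43% of all genes. The fit averages the other families on the log scale, and the SKOV3 family was near 0 for BNC1 and PDPN. Mean vehicle levels of both genes were lower in the OV2008 than in the HeyA8 family. They were 97.8 against 133 CPM for BNC1 and 28.8 against 122 CPM for PDPN. The higher calls numbered 0 without OV2008 or without OV2008_C13 and 3 with the QC libraries, and 0 of the 8 had 10 or more counts in each library. CALB2, calretinin, was not called in that contrast, with mean vehicle levels of 0.251 CPM in the OV2008, 0.384 in the SKOV3 and 9.32 in the HeyA8 family. KRT19 had between 835 and 2009 CPM in the OV2008 family, between 51.4 and 169 in the SKOV3 family and at most 0.355 in the HeyA8 family, and BNC1, which is also expressed in basal keratinocytes, was high in the HeyA8 and OV2008 families (at least 64.3 CPM) and had at most 0.126 CPM in the SKOV3 family. Of 11 markers of leukocytes, fibroblasts and endothelium, 4 were tested. CDH5, an endothelial cadherin, had between 89.2 and 176 CPM in the HeyA8 family and at most 14.02 elsewhere. COL1A1, a fibroblast collagen, had between 0.727 and 39.4 CPM, VWF at most 5.29 and PDGFRB at most 6.35, the latter 2 highest in SKOV3_TR without QC, while CD3E had at most 2, LUM at most 14 and PTPRC at most 9 counts in any library. The part of other cells in these differences was not tested.

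Relatives of the 10 factors and their 3q neighbours were read in the OV2008 contrast, where 10% of all genes were called. Of 22 tested paralogues 2 were higher and 3 lower. SOX4, a SOX factor of progenitor cells, marked the SKOV3 family, with between 205 and 240.1 CPM in the SKOV3 family and at most 27.5 elsewhere. Of 18 tested genes in the 3q26 to 3q28 region that holds MECOM, SOX2 and TP63, 1 was higher and 2 were lower. Without OV2008 or without OV2008_C13, 0 genes of either list were called, and the other leave-out fits called between 1 and 9 paralogues and between 0 and 5 of the 3q genes. EIF4G1, CLDN1, IGF2BP2 and ACTL6A, the most abundant of them, were not called. Of the antisense and neighbouring transcripts, WT1-AS had at most 30 counts, MECOM-AS1 at most 19, SOX9-AS1 at most 39 and MSLNL at most 76 counts in any library, and RPUSD1 had between 161 and 1701.

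Resistant lines were then set against their own sensitive partners without QC. SOX9 was higher and MECOM lower in the resistant line of all 3 pairs. The remaining members with enough counts differed in direction between pairs or were at 0 in some of them. How many of all genes kept a single direction over the 3 pairs was not counted, so these directions are a description only. In the edgeR test with the family as the block, 0 of the 10 genes were called, beside 0% of all genes, and DESeq2 also called 0 of the 10. At an unadjusted p of 0.05, 1 of the 10 passed, beside 3.74% of all genes. With 6 libraries and 3 families this fit had 2 residual degrees of freedom.

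**Figure D3:**
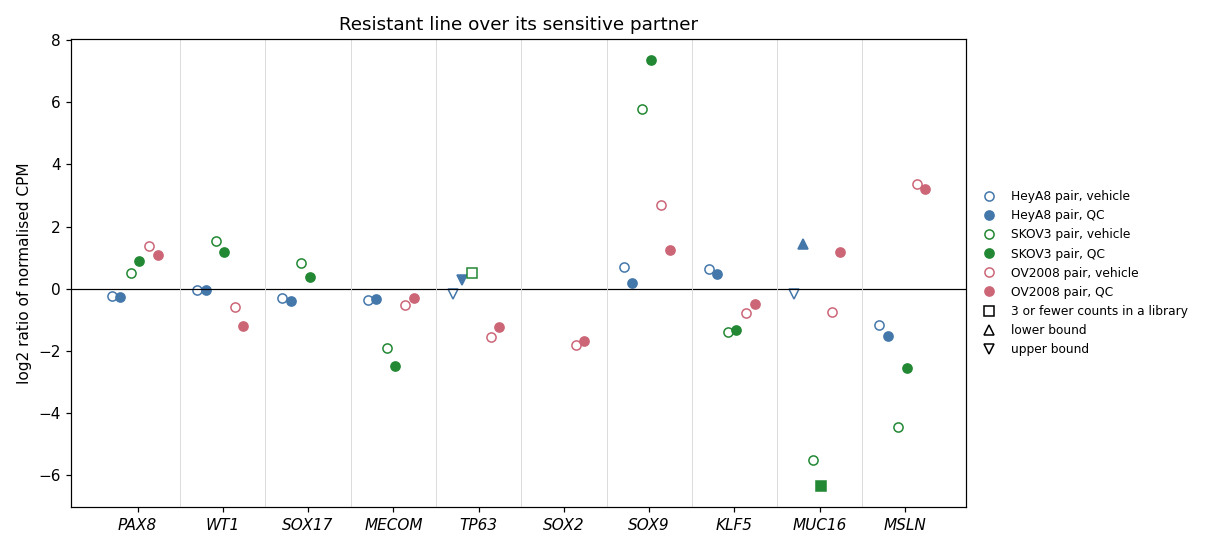
Log2 ratio of normalised CPM of each resistant line over its sensitive partner (vertical axis) for the 10 lineage markers, open for vehicle and filled for QC libraries, coloured by family. Squares mark ratios with 3 or fewer counts in a library, triangles mark bounds, and ratios with both libraries at 3 counts or fewer are left out. SOX9 lies above 0 in all 3 pairs, and MSLN lies below 0 in the HeyA8 and SKOV3 pairs and above it in the OV2008 pair.

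SOX9 was 1.61-fold higher in HeyA8_MDR than in HeyA8, 55.8-fold higher in SKOV3_TR than in SKOV3 (474 against 6 counts) and 6.44-fold higher in OV2008_C13 than in OV2008. With QC the ratios were 1.14, 165 (564 against 4 counts) and 2.39. The fitted log2 fold change over the pairs was 2.83 (SE 1.04, unadjusted p = 0.0350, adjusted p = 0.996 in edgeR). MECOM was 1.28-fold, 3.79-fold and 1.45-fold lower in the resistant lines of the HeyA8, SKOV3 and OV2008 pairs as measured, with a fitted log2 fold change of -0.93 (SE 0.39, adjusted p = 0.996). With QC it was 1.26-fold, 5.66-fold and 1.24-fold lower.

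The taxol-resistant SKOV3_TR differed most from its partner. On the log2 CPM scale with a prior count of 2, SOX9, MUC16 and MSLN differed at least 4-fold in this pair, 3 of the 10 genes beside 12.3% of all genes. MUC16 was 46.0-fold lower in SKOV3_TR (8 against 260 counts) and MSLN 22.1-fold lower (20 against 312 counts). KLF5 was 2.63-fold lower, while PAX8, WT1 and SOX17 were 1.42-fold, 2.90-fold and 1.76-fold higher. With QC the MSLN difference was 5.96-fold and that of MUC16 rested on 2 counts in SKOV3_TR. Over all pairs MUC16 had a fitted log2 fold change of -3.26 (SE 1.37, adjusted p = 0.996).

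In the cisplatin-resistant OV2008_C13 the squamous factors were lower and MSLN and SOX9 higher than in OV2008. TP63 was 2.92-fold, SOX2 3.52-fold and KLF5 1.71-fold lower in the vehicle libraries, and 2.38-fold, 3.25-fold and 1.42-fold lower with QC. PAX8 was 2.60-fold and MSLN 10.4-fold higher (509 against 29 MSLN counts), and with QC 2.10-fold and 9.15-fold. SOX9 and MSLN were the members at least 4-fold apart, 2 of 10 beside 5.56% of all genes. Squamous structural genes went both ways, with KRT5 and KRT6A lower in OV2008_C13 and SFN (536 CPM in OV2008, 1393 in OV2008_C13) and SERPINB5 (125 and 158) higher. The fitted change of TP63 over the pairs was -1.34 on the log2 scale (SE 0.65, adjusted p = 0.996), and it rests on the OV2008 pair, since the other lines held at most 4 counts.

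In the HeyA8 pair 0 of the 10 genes differed at least 4-fold, beside 8.41% of all genes. PAX8 was 1.17-fold, SOX17 1.23-fold and MSLN 2.28-fold lower in HeyA8_MDR, and KLF5 was 1.55-fold higher. The WT1 ratio was 0.966.

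SOX9 was the member whose level differed most evenly with QC. It was higher with QC in 5 of the 6 lines, by 3.44-fold in HeyA8 (22.9 to 78.7 CPM), 2.43-fold in HeyA8_MDR (36.9 to 89.6), 2.14-fold in SKOV3_TR (14 to 29.9), 6.05-fold in OV2008 (4.71 to 28.5) and 2.25-fold in OV2008_C13 (30.3 to 68.0). In SKOV3, where it had 6 counts without and 4 with QC, the ratio was 0.724. Over all lines the fitted log2 fold change was 1.49 (SE 0.22, unadjusted p = 2.13e-05), the smallest p of the 18720 genes tested, yet the adjusted p was 0.123 in the edgeR quasi-likelihood test with the line as the block. In DESeq2 with the same design the adjusted p was 1.78e-05. Higher levels with QC in at least 5 of 6 lines were seen for 16.1% of all genes.

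**Figure D4:**
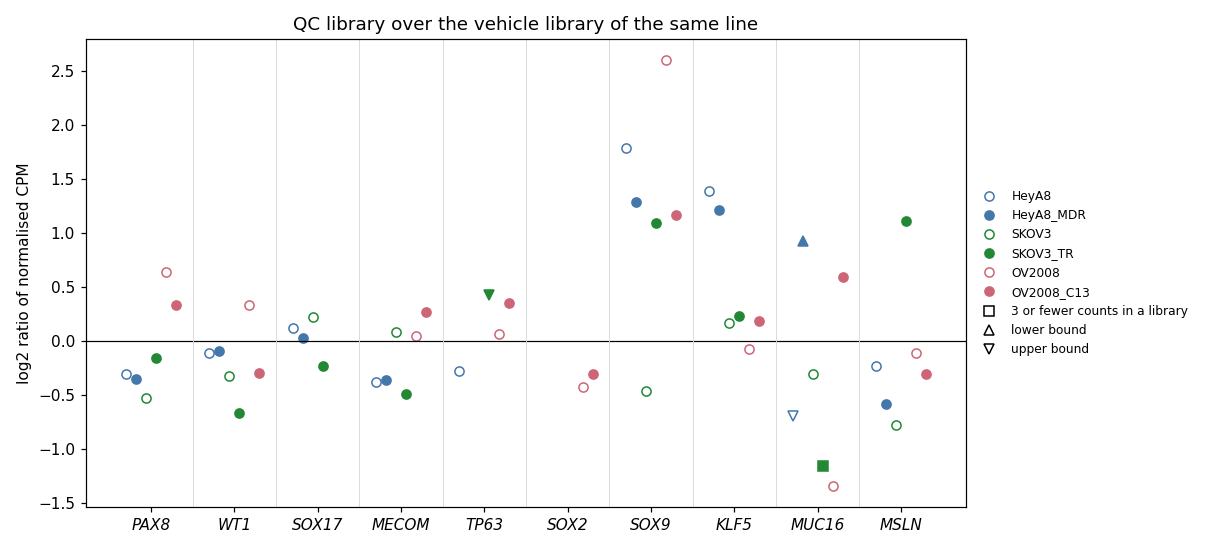
Log2 ratio of normalised CPM with QC over vehicle (vertical axis) for the 10 lineage markers in each of the 6 lines, open for sensitive and filled for resistant lines, coloured by family. Squares mark ratios with 3 or fewer counts in a library and triangles mark bounds. SOX9 lies above 1 in 5 of the lines and below 0 in SKOV3, and KLF5 lies above 1 in HeyA8 and HeyA8_MDR.

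By edgeR 0 of the 10 genes were called for QC, beside 0% of all genes, and 2 of 10 had an unadjusted p under 0.05, beside 15.2% of all genes. DESeq2 called 1, SOX9. KLF5 was the other gene with an unadjusted p under 0.05 (log2 fold change 0.51, SE 0.19, adjusted p = 0.244). Its ratios were uneven, with 2.62-fold and 2.32-fold in HeyA8 and HeyA8_MDR (23.7 to 62.2 and 36.7 to 85.2 CPM) and between 0.947-fold and 1.17-fold in the other 4 lines. In HeyA8 3 of the 10 genes differed at least 2-fold (beside 17.1% of all genes), in HeyA8_MDR 3 (16.6%), in SKOV3 0 (8.26%), in SKOV3_TR 3 (9.37%), in OV2008 2 (18%) and in OV2008_C13 1 (11.4%), on the log2 CPM scale with a prior count of 2. Beside SOX9 and KLF5, these were MUC16 in HeyA8, HeyA8_MDR and OV2008, and TP63 and MSLN in SKOV3_TR. MUC16 in the HeyA8 family and TP63 in SKOV3_TR rested on 5 counts or fewer in each library, and MUC16 in OV2008 on 42 against 21 counts.

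Apart from KLF5, the factors that set the families apart differed less with QC. PAX8 had QC over vehicle ratios between 0.691 and 0.895 in the HeyA8 and SKOV3 lines and of 1.56 and 1.26 in OV2008 and OV2008_C13. MECOM had ratios between 0.7098 and 1.20, and SOX17 between 0.8504 and 1.16 in the 4 lines that expressed it. TP63 had ratios of 1.04 in OV2008 and 1.28 in OV2008_C13, and SOX2 of 0.745 and 0.806. The adjusted p-values of the members other than SOX9 and KLF5 lay between 0.642 and 0.908. With QC as without it, PAX8, SOX17 and MECOM were lower and TP63, SOX2 and KLF5 higher in the OV2008 family than in every other line. How many of all genes separate in this way was not counted. TP63, SOX2 and SOX17 had to, since they passed the filter through the family or the other lines alone.

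The SOX9 ratio was larger in the sensitive than in the resistant line of the HeyA8 and OV2008 pairs, while SKOV3 held 6 and 4 counts. The fitted difference, resistant minus sensitive, was -0.76 on the log2 scale (SE 0.42, unadjusted p = 0.0952, adjusted p above 0.99 for all members). In this comparison edgeR and DESeq2 each called 0 of the 10 genes, beside 0% of all genes by edgeR, and 0 of the 10 had an unadjusted p under 0.05, beside 1.16% of all genes. Among the other lists, 13 of 35 tested squamous structural genes and 8 of 22 paralogues had an unadjusted p under 0.05 for QC, beside 15.2% of all genes. So did 5 of 19 squamous factors, 3 of 18 3q genes, 2 of 19 ovarian surface genes, 1 of 17 ovarian factors, 1 of 8 mesothelial genes, 2 of 5 antisense and neighbouring genes and 0 of 4 markers of other cells, and 0 genes of any list were called. FGFBP1, a secreted growth factor carrier, and CLCA2, a membrane protein of stratified epithelium, had the smallest p of the structural list, with log2 fold changes of -1.42 (adjusted p = 0.128) and 2.16 (adjusted p = 0.131). The paralogue with the smallest p was KLF10, an early response factor (log2 fold change 0.68, adjusted p = 0.149).

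Across the 12 libraries some genes tracked the members closely, given here as a description with vehicle and QC libraries of a line counted separately. Pearson's r of log2 CPM was 0.989 between PAX8 and LINC01278 and 0.987 between PAX8 and ECI2. SOX17 was most like PCDH9 (0.998) and ZFP82 (0.996), and MECOM most like SYT14 (0.982) and RHEX (0.982). TP63 was most like CRYBG1 (0.995) and LINC02050 (0.994), and SOX2 most like KLK5 (0.994) and LINC02050 (0.993). SOX9 was most like NPC2 (0.960) and PDGFB (0.959), and KLF5 most like SYAP1 (0.965) and CFAP119 (0.962). WT1 was most like IL27RA (0.969) and FRY (0.958), MUC16 most like LYN (0.963) and SLPI (0.954), and MSLN most like MTSS2 (0.943) and EXOSC6 (0.935). Between members, r was 0.991 for TP63 and SOX2, 0.955 for PAX8 and SOX17, and -0.979 for PAX8 and TP63. These values rest mostly on the 3 families.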

How the data were processed

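The authors prepared polyA RNA libraries with the TruSeq RNA kit and deposited raw counts per gene. The labels' processing notes name STAR 2.7.3a, HTSeq 0.6.1p1 and GRCh38.p13, whereas the methods of the study name TopHat, HTSeq and hg19. The annotation and strand setting are not given in the sources used here. Of 60669 Ensembl IDs, 58620 were paired with a symbol (99.868% of the counts). Exon lengths and overlaps came from GENCODE 44 on GRCh37, and positions and sequences from RefSeq on GRCh38.p14, where 7 of the 10 members had an upstream window.

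Counts were analysed with R 4.3.3, edgeR 4.0.16 and limma 3.58.1 (filterByExpr with a minimum count of 10 and total of 15, TMM, quasi-likelihood test, two-sided, Benjamini-Hochberg over all genes tested). Family and resistance contrasts used the 6 vehicle libraries (18297 genes, terms for family and resistance). QC contrasts used all 12 libraries (18720 genes, the cell line as block). Each QC library was paired with the vehicle library of the same cell line, and these deviated together from the group means (r between 0.893 and 0.929). Bounds use a floor of 3 counts, and such bounds cover counting error only. Scripts were tested on simulated data, and plots used matplotlib 3.10.9.

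The members and the gene lists were chosen with earlier results of these data known, and nothing here is independent support for them. The text names all members, from each other list the 4 genes with the highest level per length without QC and up to 3 with the smallest p, antisense genes with over 3 counts, and the 2 genes most like each member. FGFBP1, CLCA2 and others fall under that rule, and CD3E, LUM, PTPRC, ESR1, PGR and FOLR1 were chosen after their values were seen. Some genes that the rule names are not reported here. Alternatives were DESeq2 1.42.0, other scalings and filters, a minimum size of 1 for the log2 fold change, the QC or summed libraries, no resistance term, no block, other prior counts and leaving out each line.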

Additional observations from a re-analysis of the deposited data

Results flagged for a closer look

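In 5 of the 10 genes the resistant line lay above its sensitive partner in some pairs and below it in others. This held in both the vehicle and the QC libraries. The share of all genes that do so was not counted, so this count is not read as a trait of the markers. The values below are differences between families in the mean log2 ratio of resistant over sensitive, with 2 ratios per family, and none of these differences was tested. For PAX8 the HeyA8 pair differed from the SKOV3 pair by -0.937 and from the OV2008 pair by -1.47. For WT1 the HeyA8 pair differed from the SKOV3 pair by -1.40, and the SKOV3 pair from the OV2008 pair by 2.26. SOX17 differed by -0.94 between the HeyA8 and SKOV3 pairs and was at or near 0 counts in the OV2008 pair. KLF5 differed by 1.91 between the HeyA8 and SKOV3 pairs and by 1.18 between the HeyA8 and OV2008 pairs. MSLN gave the widest gaps, -4.65 between the HeyA8 and OV2008 pairs and -6.81 between the SKOV3 and OV2008 pairs, with 29 against 509 counts in OV2008 and OV2008_C13 and 312 against 20 in SKOV3 and SKOV3_TR without QC. No library stood apart from the other 3 of its family in 27 tests of the members' log2 CPM at Dixon's 95% level, which flags about 1 in 20 groups by chance.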

How the results depend on the processing

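Of the 6 calls in the OV2008 contrast, all kept their direction in every alternative run, and outside the leave-out fits MECOM was the one lost (with the QC libraries). Over all genes, calls for the HeyA8, SKOV3 and OV2008 families and for HeyA8 against SKOV3 numbered 1399, 2248, 1830 and 1320. DESeq2 called 3749, 5043, 4572 and 4318, and with no filter on low counts edgeR called 3415, 4672, 4153 and 3841. Asking for 10 or more counts everywhere left 919 for HeyA8. The QC libraries gave 2265 for HeyA8 and 2564 for HeyA8 against SKOV3, summed counts gave 2315, 3602 for SKOV3 and 2495 for HeyA8 against SKOV3, and dropping the resistance term gave 3397 for SKOV3 and 2236 for HeyA8 against SKOV3. Leaving out a line gave 67 to 2201 for HeyA8, 0 to 1661 for SKOV3, 0 to 2694 for OV2008 and 107 to 1596 for HeyA8 against SKOV3. For resistance, QC and their difference, edgeR called 0 genes, DESeq2 called 48, 518 and 1, and no filter gave 146, 791 and 5.

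Of the 10 members, HeyA8 calls numbered 3, and 6 by DESeq2 or with no filter, and 0 to 6 leaving out a line. SKOV3 calls numbered 4, 2 with 10 or more counts everywhere, where fewer genes were tested, and 0 to 5 leaving out a line. OV2008 calls numbered 6, 3 with 10 or more counts everywhere and 0 to 6 leaving out a line. HeyA8 against SKOV3 gave 1, then 4 by DESeq2, 5 with no filter, 2 each with total counts, the QC libraries, summed counts and no resistance term, and 0 to 3 leaving out a line. With no filter 1 member was called for resistance (SOX9, log2 fold change 2.83, adjusted p = 0.0148) and 2 for QC (SOX9 and KLF5), and DESeq2 called 1 for QC. The cause of these shifts was not tested. The SOX9 difference with QC stayed between 1.26 and 1.59 on the log2 scale. Without the replicate block, which paired the libraries of a line or the lines of a family, 0 members were called for resistance, QC or their difference. Total counts as library size moved the median log2 fold change of all genes from 0.09 to 0.32 for SKOV3, from 0.01 to -0.20 for HeyA8 and from -0.03 to -0.33 for HeyA8 against SKOV3, and the share of calls that were higher from 66.1% to 77.2% for SKOV3 and from 46.6% to 32.7% for HeyA8 against SKOV3. Members at few counts (MUC16 and WT1 in several lines) limit what these libraries can resolve.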

Other observations

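Hormone receptor and folate receptor genes of the ovarian lists differed widely between SKOV3 and SKOV3_TR, and these genes were chosen after their values were seen. ESR1, the estrogen receptor, had 151 CPM in SKOV3 and 0.414 in SKOV3_TR without QC (3607 against 14 counts), and 173 and 0.106 with QC. PGR, the progesterone receptor, ran the other way, with 0.251 and 22.0 CPM without QC (6 against 744 counts). FOLR1, which encodes folate receptor alpha, had 22.0 CPM in SKOV3 (525 counts) and 0 counts in SKOV3_TR. In the OV2008 family ESR1 had between 23.7 and 35.0 CPM in all 4 libraries, and in the HeyA8 family at most 0.709. These differences compare single libraries and have no replicate check.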
